A study of Mus musculus with 8 samples.

Results

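CD45RBlow and CD45RBhigh CD4+ T cells of mice without CCR2, the chemokine receptor for CCL2, were compared on 4 of the 8 single-colour expression arrays of the study. The members were chosen from the sample titles: 2 arrays of CCR2-/- CD45RBlow cells, 2 arrays of CCR2-/- CD45RBhigh cells, and the 4 wild-type arrays for the spread and for the test of a difference between genotypes. All mice were C57BL/6, aged 6 to 8 weeks, and wild type or CCR2-/-. From their spleens, CD4+CD25- T cells were sorted by their surface CD45RB and then cultured on plates coated with antibodies to CD3 and CD28 (αCD3/αCD28), so every group, the controls included, was stimulated. The duration is not settled by the labels: it is 48 h in the sample protocols but 2 h in the series design. The labels do not say how the Ccr2 allele was made, how many mice gave cells, or whether replicates came from separate mice, and the p-values therefore measure only the spread between these samples.

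CD45RB is a splice form of the phosphatase CD45 that CD4+ T cells carry at high density before they meet antigen and at lower density afterwards. The CD45RBhigh fraction of mouse spleen is therefore mostly naive, whereas the CD45RBlow fraction holds memory and effector cells and a share of regulatory T cells, of which the CD25+ ones were removed here by the sort. Transfer of CD45RBhigh cells into lymphopenic mice is a classical model of colitis that cells of the CD45RBlow fraction can restrain, and IL-10 and TGF-beta are known mediators of that restraint. CCR2 guides monocytes and some antigen-experienced T cells along gradients of CCL2.

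Levels are log2 values on which a difference of 1 is a 2-fold change, and a difference is CD45RBlow minus CD45RBhigh throughout, with values given for replicate 1 and then replicate 2. Array medians lay between 4.92 and 5.05, and r between arrays of 1 group, over all clusters, was 0.984 to 0.994. The T cell identity of both fractions was visible: Cd4 stood at 11.58 and 11.57 in CD45RBhigh and 11.54 and 11.74 in CD45RBlow CCR2-/- cells, always at or above the 98.2nd percentile of an array, and none of the 8 tested CD4 T cell markers passed the test. Ptprc, the gene of CD45, differed by 0.10 ± 0.12 (SE), and the values do not separate its splice forms, so the sort on CD45RB is not checked by them. Ccr2 itself was dim, at 4.62 and 4.75 in CD45RBhigh and 5.15 and 4.70 in CD45RBlow cells, between the 27.0th and 53.5th percentiles over the 8 arrays. Wild-type Ccr2 was no higher, at 4.45 and 4.26 in CD45RBhigh and 4.61 and 4.52 in CD45RBlow cells. The values therefore do not show the loss of Ccr2, and which part of the gene the probes cover is not known here. Replicate numbers differed in sex-linked genes in every group. Xist, the RNA of the inactive X chromosome, was at 4.54 on CD45RBhigh replicate 1 and 11.75 on CD45RBhigh replicate 2. On the CD45RBlow arrays it was at 5.02 and 11.89. Kdm5d, a gene of the Y chromosome, was at 9.13 and 7.74 in CD45RBhigh and 8.91 and 7.58 in CD45RBlow cells. Uty, also on the Y chromosome, was at 9.59 and 8.47 against 9.40 and 8.19. Replicate 2 thus held Xist together with Y chromosome transcripts, and the sex of its cells was not tested. Each pair was matched in these genes, so the comparison was balanced. Replicates with the same number also deviated together across genes (6 correlations from 0.11 to 0.53), so a second model, with a block for the replicate number, is quoted wherever it changes a call.

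CCR2-/- CD45RBlow cells had more transcript of helper and regulatory T cell genes such as Il4, Maf, Prdm1 and Ahr, and less of Ms4a4b, of the interferon-inducible gene Phf11b and of Aldh1l2, an enzyme of folate metabolism. Of 13508 genes tested with limma, 45 passed at an adjusted p of 0.05 (0.333%), of which 19 rose (0.141%) and 26 fell (0.192%) in CD45RBlow cells. The replicate block raised the count to 196 genes (1.45%), with 71 higher (0.526%) and 125 lower (0.925%), and these included all 45. At an unadjusted p under 0.05 the count was 1665 genes (12.3%). The count of 45 was not stable: it changed when any 1 array was left out, and was lowest without CD45RBlow replicate 1. It also fell when either wild-type CD45RBlow array was left out, although those arrays enter only through the spread. Each such fit leaves a group with 1 array, so the counts do not show which arrays the result rests on.

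**Figure D1:**
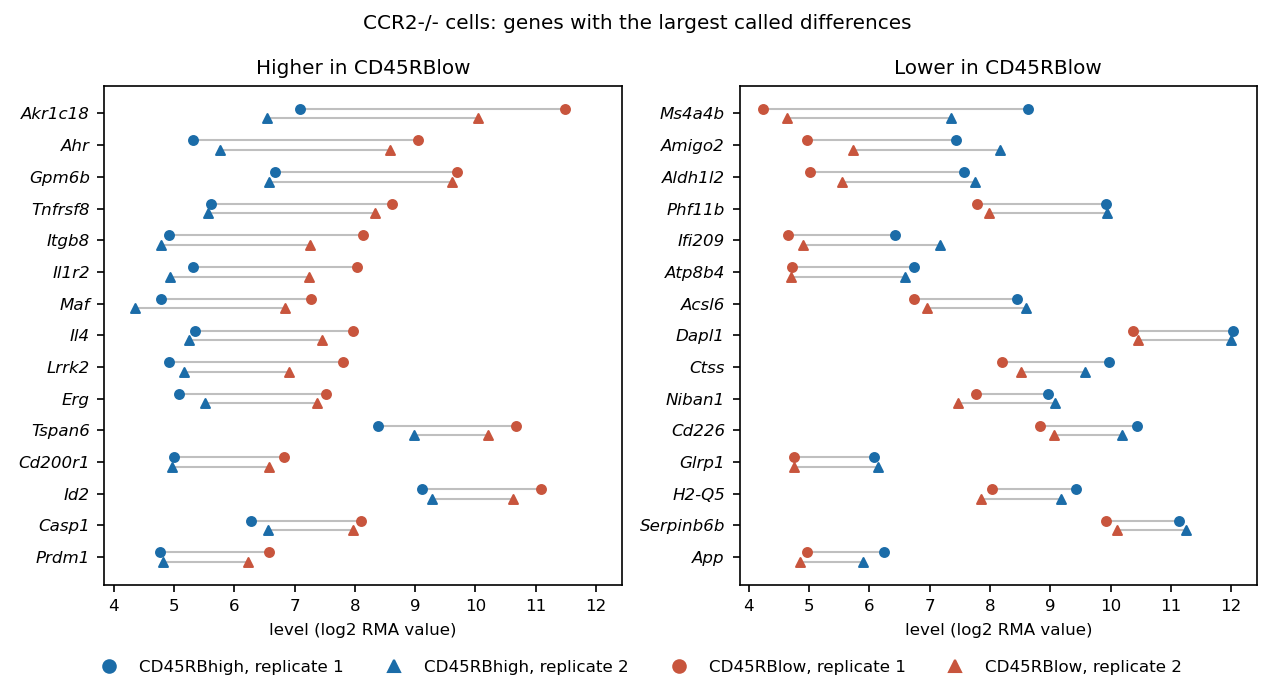
Log2 RMA level (x axis) of the 15 genes with the largest increase (left) and the 15 with the largest decrease (right) among those that passed, on each of the 4 CCR2-/- arrays. Blue marks CD45RBhigh and red CD45RBlow, circles replicate 1 and triangles replicate 2, and grey lines join the arrays of a pair. The blue and red symbols of a gene do not overlap, by the rule that chose the genes.

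Among the transcription factors, Maf, which activates the Il4, Il10 and Il21 genes, was at 4.79 and 4.35 in CD45RBhigh and at 7.27 and 6.84 in CD45RBlow cells. Both CD45RBlow arrays lay far over both CD45RBhigh arrays, and Maf rose 5.60-fold (log2 2.49 ± 0.22 SE, limma adjusted p = 0.0171), with the same gap of 2.49 in each pair. A second, dimmer transcript cluster of Maf differed by 1.19. Prdm1, which encodes Blimp-1, a repressor found in effector and regulatory T cells, was at 4.77 and 4.81 against 6.57 and 6.23, and it rose 3.05-fold (limma adjusted p = 0.0456). Id2, an inhibitor of E proteins in effector cells, rose 3.17-fold, from 9.11 and 9.28 to 11.09 and 10.63 (limma adjusted p = 0.0352). Erg, an ETS-family factor better known from endothelium and blood stem cells, was at 5.08 and 5.52 in CD45RBhigh and 7.53 and 7.38 in CD45RBlow cells and rose 4.44-fold (limma adjusted p = 0.0171). In a bulk measurement such as this, fewer cells of a type and less RNA per cell cannot be told apart, so none of these differences says how many cells carried the transcript.

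The Th2 cytokine gene Il4 rose 5.34-fold (log2 2.42, 95% confidence interval 1.86 to 2.97, limma adjusted p = 0.0194). Its levels were 5.35 and 5.25 in CD45RBhigh and 7.97 and 7.46 in CD45RBlow cells, and the groups were apart by more than 2 log2 units. Of 12 tested genes of the Th2 and Th9 list, Il4 and Ccr4 rose and 0 fell. With the replicate block 5 rose, adding Il24, Gata3 and Pparg. Of all genes tested, 0.141% rose without the block and 0.526% with it. The median difference over the list was 1.07, beside -0.01 over all genes tested, and 11 of the 12 were higher in both pairs, as were 3723 of all 13508 genes tested. In 11 of the 12 both CD45RBlow arrays lay over both CD45RBhigh arrays, which held for 17.9% of all genes tested.

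Gata3, the Th2 lineage factor, was at 8.73 and 9.18 in CD45RBhigh and 9.97 and 10.04 in CD45RBlow cells, a difference of 1.05 that passed only with the block (limma adjusted p = 0.0596 without it and 0.0177 with it). Il24, a cytokine of the IL-10 family, was at 5.33 and 5.31 against 8.09 and 7.91. These arrays were close within each group, yet Il24 passed only with the block (difference 2.68, limma adjusted p = 0.0619 and 0.0165). The wild-type CD45RBhigh arrays, which enter the spread, were at 7.25 and 5.88. Pparg, a nuclear receptor found in Th2 cells, differed by 1.08 in pair 1 and 1.11 in pair 2 on a replicate difference of about the same size in both groups, and passed with the block (limma adjusted p = 0.0244) but not without it (0.476).

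The type 2 cytokine genes Il13, Il9 and Il5 did not pass in either fit. Il13 was at 6.45 and 8.35 in CD45RBhigh and at 10.06 and 9.82 in CD45RBlow cells, so its gap was 3.61 in pair 1 and 1.47 in pair 2 (limma adjusted p = 0.132, and 0.0616 with the block). Il9 was at 4.93 and 5.76 against 8.76 and 6.48, with gaps of 3.84 and 0.72 (limma adjusted p = 0.292). Il5 was dim, at 4.24 and 4.25 against 5.23 and 4.62, with gaps of 0.99 and 0.37. In each of these genes the groups did not overlap, and the larger gap was in pair 1.

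**Figure D2:**
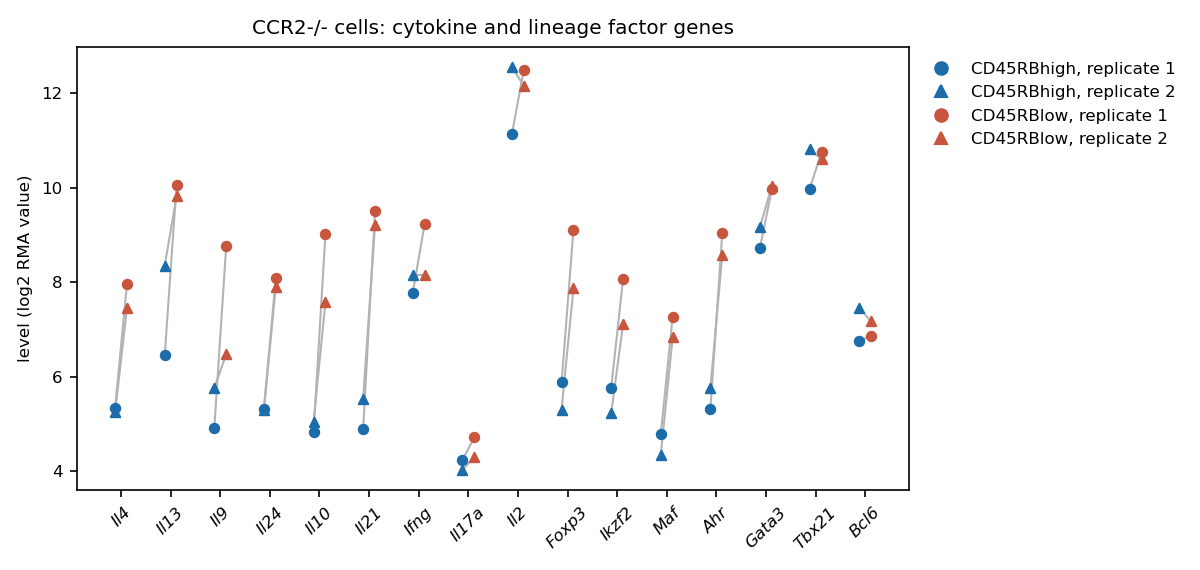
Log2 RMA level (y axis) of cytokine and lineage factor genes on the 4 CCR2-/- arrays, with blue for CD45RBhigh, red for CD45RBlow, circles for replicate 1 and triangles for replicate 2. Grey lines join the arrays of a pair. Il4, Il24, Il10, Il21, Foxp3, Maf and Ahr have both CD45RBlow arrays over both CD45RBhigh arrays, whereas the symbols of Tbx21, Il2 and Bcl6 overlap.

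Regulatory T cell genes were higher in part. Foxp3, which specifies the regulatory T cell lineage, was at 5.88 and 5.31 in CD45RBhigh and at 9.11 and 7.87 in CD45RBlow cells. The groups were apart in both pairs by 3.23 and 2.56, and Foxp3 passed with the replicate block (7.45-fold, limma adjusted p = 0.0173) and just missed the threshold without it (0.0537). Il10, the anti-inflammatory cytokine gene, was at 4.83 and 5.05 against 9.01 and 7.57, a 10.2-fold difference with gaps of 4.18 and 2.53 (limma adjusted p = 0.0619 without the block and 0.0165 with it). Ikzf2, which encodes Helios, a factor of many regulatory T cells, was at 5.77 and 5.23 against 8.07 and 7.11 (difference 2.09, limma adjusted p = 0.0866 and 0.0144). In all 3 genes the CD45RBlow array of replicate 1 was the highest.

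Itgb8, the beta subunit of an integrin that frees active TGF-beta, was the member of the regulatory T cell list that rose without the block. Its levels of 4.93 and 4.79 in CD45RBhigh and 8.13 and 7.25 in CD45RBlow cells gave a 7.14-fold rise (log2 2.84 ± 0.39 SE, limma adjusted p = 0.0409). With the block 5 of 21 tested members rose, the fifth being Entpd1, which encodes the ectonucleotidase CD39 (difference 0.91, limma adjusted p = 0.0165), and Ebi3, a subunit of IL-27 and IL-35, fell by 0.86 (0.0223). Of all genes tested, 0.526% rose and 0.925% fell with the block. The list median was 0.49, with 0.65 in pair 1 and 0.34 in pair 2. Il2ra, the gene of the CD25 on which cells had been excluded, was at 12.33 and 12.30 in CD45RBhigh and 12.47 and 12.43 in CD45RBlow cells after stimulation (difference 0.14 ± 0.12 SE). Itgb8 was also the sole riser among 13 integrin subunits, where Itga4 fell with the block (-0.76 in both pairs, limma adjusted p = 0.0306), and among 17 genes of the TGF-beta pathway, where Ski, a repressor of SMAD proteins, rose with the block (0.72, limma adjusted p = 0.0435).

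Ahr, the ligand-activated aryl hydrocarbon receptor of Th17, Th22 and type 1 regulatory cells, rose 9.68-fold. It was at 5.32 and 5.76 in CD45RBhigh and 9.05 and 8.58 in CD45RBlow cells (log2 3.27 ± 0.34 SE, limma adjusted p = 0.022), and the groups were far apart. Of the 6 tested genes of its list, Ahr included, Lrrk2 also rose. This kinase, known from inherited Parkinson's disease, was at 4.91 and 5.17 against 7.81 and 6.90 (4.97-fold, limma adjusted p = 0.0307). Tiparp, a direct target of the receptor, differed by 0.36 (limma adjusted p = 0.355). The classical targets Cyp1a1, Cyp1b1 and Ahrr lay below the 44.3rd percentile on all 8 arrays and were too dim to be tested.

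Ahr was also the riser among 11 tested Th17 genes. Il21, a cytokine gene of follicular helper and Th17 cells, had the largest difference of the lists, from 4.89 and 5.53 to 9.50 and 9.20. This 17.7-fold gap was seen in both pairs (4.61 and 3.67) but missed the threshold (limma adjusted p = 0.137, and 0.0804 with the block). The replicates were farthest apart in wild-type CD45RBhigh cells, at 8.70 and 5.13. In a fit of the CCR2-/- arrays alone the limma adjusted p of Il21 was 0.0187, a value quoted for this gene only. The part of the wild-type spread in the missed threshold was not tested. Il17a differed by 0.37 ± 0.45 SE, at levels of 4.24 and 4.03 against 4.72 and 4.30. None of the 10 tested follicular helper genes passed, with or without the block, and Bcl6, their lineage factor, differed by -0.09 ± 0.23 SE.

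Several membrane receptors rose. Tnfrsf8, which encodes CD30, a costimulatory TNF receptor of activated cells, was at 5.62 and 5.57 in CD45RBhigh and 8.61 and 8.34 in CD45RBlow cells (7.36-fold, limma adjusted p = 0.0295). It was the single riser among 21 TNF receptor superfamily genes (list median 0.00), joined with the block by Tnfrsf26 (1.17, limma adjusted p = 0.0344). Cd200r1, an inhibitory receptor for CD200, was at 5.00 and 4.96 against 6.83 and 6.57 (3.29-fold, limma adjusted p = 0.0194) and was alone in rising without the block among 16 inhibitory receptor and ectonucleotidase genes, joined by Entpd1 with it (limma adjusted p = 0.0165, list median 0.39). Gpm6b, a proteolipid family membrane protein, was at 6.67 and 6.58 against 9.69 and 9.61, with gaps of 3.02 and 3.03 (8.13-fold, limma adjusted p = 0.0352). Tspan6, a tetraspanin, rose 3.39-fold, and Cd24a, a small glycosylphosphatidylinositol-anchored protein, rose 2.19-fold from 7.88 and 8.00 to 9.16 and 8.98 (limma adjusted p = 0.0432 and 0.0375).

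Within the IL-1 family and its inflammasome, Il1r2 and Casp1 rose. Il1r2, a decoy receptor that binds IL-1 without signalling, was at 5.31 and 4.94 in CD45RBhigh and 8.03 and 7.24 in CD45RBlow cells (5.71-fold, log2 2.51 ± 0.30 SE, limma adjusted p = 0.0307). Casp1, the protease that matures IL-1 beta and IL-18, was at 6.28 and 6.56 against 8.10 and 7.98 (3.07-fold, limma adjusted p = 0.0121). In both genes the 2 CD45RBlow arrays lay over the 2 CD45RBhigh arrays by more than the arrays of a group differed. The other 12 tested members did not pass without the block. With it, Il1rl2, a receptor subunit for IL-36, fell by 1.17 (limma adjusted p = 0.0435) and Aim2, a sensor of cytosolic DNA, fell by 0.80 (0.0458).

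The largest increase of all genes that passed was in Akr1c18, a 20-alpha-hydroxysteroid dehydrogenase that inactivates progesterone. Its levels were 7.09 and 6.55 in CD45RBhigh and 11.48 and 10.05 in CD45RBlow cells, a 15.4-fold rise (log2 3.94, 95% confidence interval 2.94 to 4.95, limma adjusted p = 0.0229). Cyp11a1, the mitochondrial enzyme that makes pregnenolone from cholesterol, was at 4.68 and 4.83 against 6.09 and 6.02, and its difference of 1.30 passed only with the block (limma adjusted p = 0.052 and 0.0309). No other of 14 tested steroid and prostaglandin enzyme genes passed in either fit.

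Of 11 chemokine receptor genes, Ccr4, the receptor for CCL17 and CCL22 on Th2 and regulatory cells, rose 2.17-fold from 9.43 and 9.62 to 10.74 and 10.55 (limma adjusted p = 0.0252). With the block Cxcr3, the receptor for CXCL9 and CXCL10 on Th1 cells, rose by 1.16 (limma adjusted p = 0.0268), and Ccr7, the lymph node homing receptor, fell by 0.90 (0.0402). Maf, Prdm1, Id2 and Cd200r1 were the risers among 28 memory and effector genes, whose median difference was 0.14. Of all genes tested, 0.141% rose. Cd44, a common surface marker of memory cells, was not higher: it stood at 9.07 and 8.92 in CD45RBhigh and 8.58 and 8.53 in CD45RBlow cells (difference -0.44, limma adjusted p = 0.248). The remaining genes with a usual symbol that rose were Spx, encoding the peptide spexin (2.71-fold), and Neto2, an auxiliary subunit of kainate receptors (2.40-fold, limma adjusted p = 0.0194 and 0.0451).

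Genes that passed only with the block included further large increases with a wide replicate difference. Gpr33, an orphan receptor related to chemoattractant receptors, was at 4.63 and 5.21 in CD45RBhigh and 8.58 and 7.47 in CD45RBlow cells (8.63-fold, limma adjusted p = 0.0402 with the block). Ajuba, a LIM-domain scaffold, Dgkk, a diacylglycerol kinase, and Inhba, the activin A subunit, had gaps of 3.35, 3.21 and 2.61 in pair 1 and 1.76, 1.58 and 1.54 in pair 2. Each of these 3 was over 1 log2 unit higher on CD45RBhigh replicate 2 than on CD45RBhigh replicate 1, while the CD45RBlow arrays differed far less. Plcd1, a phospholipase C, and Emp1, an epithelial membrane protein, differed by 1.88 and 1.68, with the wider gap again in pair 1.

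The largest decrease was in Ms4a4b, a membrane-spanning MS4A protein of T cells that lowers their proliferation. It was at 8.62 and 7.35 in CD45RBhigh and 4.24 and 4.64 in CD45RBlow cells and fell 11.7-fold (log2 -3.55 ± 0.45 SE, limma adjusted p = 0.0352). All 9 members of the MS4A family were lower in CD45RBlow cells on average, 8 of them in both pairs (4084 of all 13508 genes tested were), with a median of -0.76, but no other member passed in either fit. Ms4a4c was at 7.66 and 5.70 against 4.34 and 4.41 (difference -2.30, limma adjusted p = 0.136). Both genes were highest on CD45RBhigh replicate 1. That array also had the highest B cell markers: the 10 measured members averaged 5.93 there, 5.11 on CD45RBhigh replicate 2, and 4.90 and 4.92 on the CD45RBlow arrays. Fcer2a was at 7.91, 5.88, 5.02 and 4.81 on these arrays and Cd79a at 5.86, 4.24, 3.87 and 3.77, whereas Pax5 and Cr2 reached the 34.8th percentile at most. In pair 1 the B cell marker mean differed by -1.03 and Ms4a4b by -4.39, and in pair 2 they differed by -0.20 and -2.71.

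Ighm, the immunoglobulin heavy chain gene, followed another course. It was at 10.86 and 10.82 in CD45RBhigh and 9.77 and 9.64 in CD45RBlow cells, with gaps of -1.09 and -1.18, and was the B cell marker of 7 tested that fell with the block (limma adjusted p = 0.0651 and 0.0332). Its 6 dimmer transcript clusters differed by -0.58 to -0.18. The median of the 7 B cell markers was -0.98, with -1.09 in pair 1 and -0.20 in pair 2. The part of B cell transcripts in the decreases, that of Ms4a4b included, was not tested.

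Ctss, the lysosomal protease cathepsin S, fell 2.67-fold, from 9.97 and 9.57 in CD45RBhigh to 8.19 and 8.51 in CD45RBlow cells (limma adjusted p = 0.0427). Ncf1, a cytosolic subunit of the phagocyte oxidase, differed by -1.67 and fell with the block (limma adjusted p = 0.0306), as did Cd68, a lysosomal glycoprotein of macrophages (-0.97, 0.0259). These genes are active in myeloid and B cells too. The 10 measured macrophage and monocyte markers averaged 5.22 and 5.08 on the CD45RBhigh and 4.88 and 4.84 on the CD45RBlow arrays, and Csf1r, Adgre1, Lyz2 and Cd14 stayed below the 36.7th percentile on all 8 arrays. Only 3 of the 10 were bright enough to be tested. Of 6 tested dendritic cell markers 0 passed with or without the block, with H2-Aa at 6.86 and 5.07 against 4.35 and 4.58, again highest on CD45RBhigh replicate 1. The 5 tested NK cell markers and the 2 CD8 T cell markers did not pass either, and Cd8b1 was at 8.78 and 7.76 against 7.38 and 7.30. The part of these markers in the decreases was not tested.

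Of 38 tested interferon-response genes 1 fell without the replicate block and 2 with it, beside 0.192% and 0.925% of all genes tested. In both pairs 27 of the 38 were lower, beside 4084 of all 13508 genes tested. Phf11b, an interferon-inducible PHD finger gene, was at 9.93 and 9.95 in CD45RBhigh and 7.79 and 7.99 in CD45RBlow cells and fell 4.13-fold (log2 -2.05, 95% confidence interval -2.34 to -1.75, limma adjusted p = 0.0034). It was the member that fell without the block, and Slfn1, a Schlafen gene of T cell quiescence, joined it with the block (-1.62, limma adjusted p = 0.0264). The list median was -0.99, with -0.29 in pair 1 and -1.56 in pair 2, and 36 of 38 members were more negative in pair 2. CD45RBhigh replicate 2 was over CD45RBhigh replicate 1 in 38 of 38 members, by a median of 1.54, while the CD45RBlow arrays differed by a median of 0.20. Ifit1, which binds foreign RNA caps, was at 5.91 and 9.06 against 4.70 and 5.14, and Irf7, which amplifies the interferon response, at 4.44 and 8.11 against 4.52 and 4.75. The Irf7 gap was thus 0.09 in pair 1 and -3.36 in pair 2, and Oasl1 had gaps of -0.54 and -3.92. Phf11b differed little between pairs (-2.14 and -1.95), unlike these genes. The 39 measured members averaged 6.65 and 8.31 on the CCR2-/- CD45RBhigh arrays and 7.42 and 8.00 on the wild-type CD45RBhigh arrays. In wild type the list median was -0.94 in pair 1 and -1.47 in pair 2, and 36 of 38 members had the same sign as in CCR2-/- cells.

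Some genes outside that list, named for their change and not from a list, are known to be inducible by interferon too. Ifi209, a member of the Ifi200 family of DNA-binding proteins, was at 6.43 and 7.18 in CD45RBhigh and 4.65 and 4.90 in CD45RBlow cells (4.09-fold lower, limma adjusted p = 0.0352). Its relative Mndal, the epithelial-stromal interaction gene Epsti1 and the tripartite motif gene Trim34a differed by -1.76, -1.53 and -1.42 and fell with the block (limma adjusted p = 0.0268, 0.041 and 0.0304). Probe sequences were not used here, so signal shared between close relatives of the Ifi200, Trim and Ms4a families was not tested.

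The promoter of Phf11b is printed because it was the interferon-response gene that fell without the block, and because it holds an interferon-stimulated response element, the kind of sequence that interferon-activated factors bind. The window runs from 150 bases before the RefSeq start to 30 bases after it on the minus strand (RefSeq, GRCm38.p6, chr14:59341301-59341480), with the match to this element (GAAA, any 2 bases, GAAA), which lies 50 bases before the start, in capitals.
Phf11b: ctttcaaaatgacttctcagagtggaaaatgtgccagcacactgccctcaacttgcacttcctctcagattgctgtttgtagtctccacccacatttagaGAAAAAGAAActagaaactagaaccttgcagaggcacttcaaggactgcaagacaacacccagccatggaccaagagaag
Searched on both strands from 250 bases before to 50 bases after the start, the element occurred in 18 of the 27 interferon-response genes with a window in the RefSeq table (66.7%), against 3.95% of the 10547 tested genes with a window and 3.44% of all 32851 windows. The list consists of known interferon targets, so this share describes the list and is no result of the arrays, and a match is neither a bound site nor a cause. Among the 26 genes that fell, 2 of 20 with a window held it (10.0%).

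**Figure D3:**
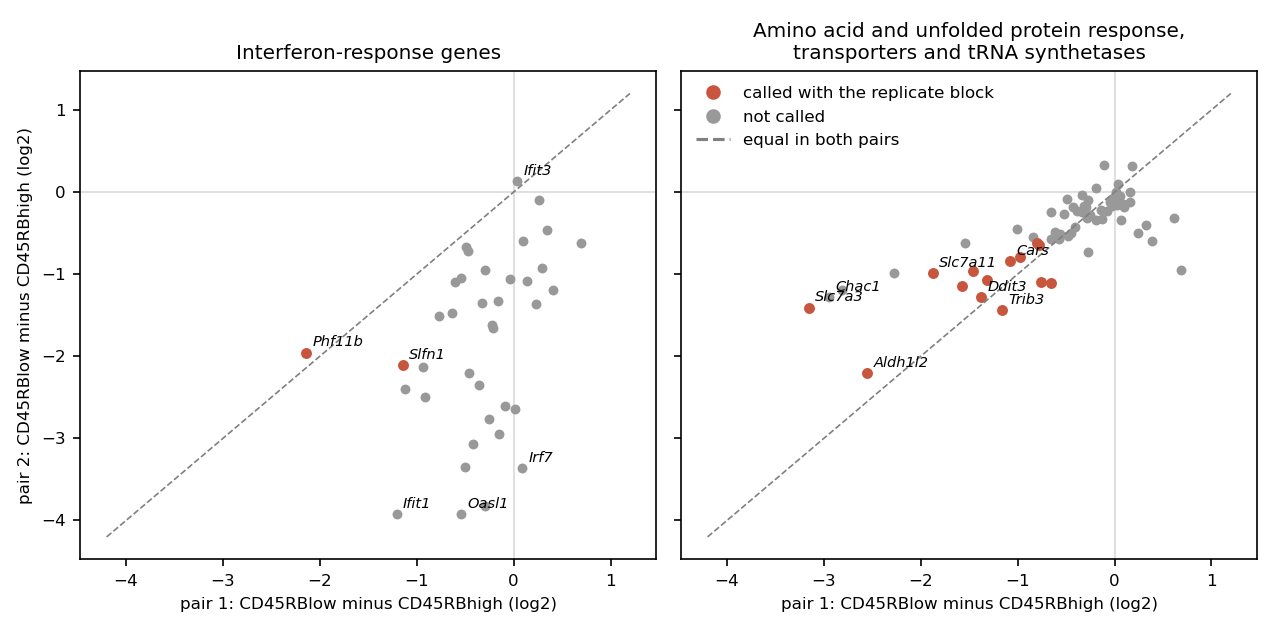
Difference CD45RBlow minus CD45RBhigh (log2) in pair 1 (x axis) and pair 2 (y axis) for the 38 tested interferon-response genes (left) and the tested genes of the amino acid and unfolded protein response, amino acid transporters and tRNA synthetases (right). Red points passed with the replicate block, grey points did not, and the dashed line marks equal differences. The interferon-response genes lie mostly under the line, with medians of -0.29 in pair 1 and -1.56 in pair 2, whereas the points on the right scatter around it. There the medians in pair 1 and pair 2 were -0.65 and -0.59 for the amino acid and unfolded protein response, -0.13 and -0.19 for the transporters and -0.34 and -0.27 for the synthetases.

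Part of the genes of amino acid supply fell, most of them only by the fit with the replicate block. Cells short of amino acids, or with unfolded protein in the endoplasmic reticulum, make the factors ATF4 and CHOP, which switch on genes of amino acid synthesis, import and tRNA charging. Aldh1l2, a mitochondrial enzyme of folate metabolism, was at 7.57 and 7.75 in CD45RBhigh and 5.02 and 5.54 in CD45RBlow cells and fell 5.20-fold (log2 -2.38 ± 0.26 SE, limma adjusted p = 0.0229). It was the single member of 32 that fell without the block, and 10 fell with it, beside 0.192% and 0.925% of all genes tested. The list median was -0.55, with -0.65 in pair 1 and -0.59 in pair 2, and 26 of 32 members were lower in both pairs, beside 4084 of all 13508 genes tested. In 24 of the 32 both CD45RBlow arrays lay under both CD45RBhigh arrays, against 19.7% of all genes tested.

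Ddit3, the gene of CHOP, was at 7.84 and 8.53 in CD45RBhigh and 6.47 and 7.26 in CD45RBlow cells, with gaps of -1.38 and -1.28 (limma adjusted p = 0.0103 with the block and 0.186 without it). Replicate 2 was higher than replicate 1 in both fractions by a similar amount, which is the difference the block takes out. Trib3, a pseudokinase induced by CHOP, had gaps of -1.16 and -1.44, and Cth, which makes cysteine, of -1.32 and -1.07 (limma adjusted p = 0.026 and 0.0264 with the block). Chac1, which breaks down glutathione, was at 8.21 and 8.86 against 5.27 and 7.58 and did not pass in either fit (difference -2.11, limma adjusted p = 0.0953 with the block). Asns, asparagine synthetase, differed by -1.08 (0.066 with the block), and Atf4 itself by -0.26 (0.329 with the block). Hspa5, the chaperone BiP of the unfolded protein response, was at 9.76 and 9.94 against 9.78 and 9.78.

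Among 15 amino acid transporter genes, 0 passed without the block and 3 fell with it. Slc7a3, a transporter of cationic amino acids, was at 9.61 and 9.74 in CD45RBhigh and 6.46 and 8.34 in CD45RBlow cells (difference -2.28, limma adjusted p = 0.0435 with the block). Slc7a11, which exchanges cystine for glutamate, was at 6.88 and 7.98 against 5.00 and 6.99, so CD45RBlow replicate 2 lay over CD45RBhigh replicate 1 and the groups overlapped, while each pair fell, by 1.87 and 0.99 (0.0332). Slc1a4, a carrier of small neutral amino acids, differed by -1.36 (0.0129). Of 17 aminoacyl-tRNA synthetase genes, Cars, which charges cysteine tRNA, fell with the block (-0.96, limma adjusted p = 0.0259). Over all genes tested, 0.925% fell with the block. In both pairs 12 of 17 synthetases and 9 of 15 transporters were lower, beside 4084 of all 13508 genes tested.

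The promoter of Slc7a11 is printed because it holds the ATF4 and CHOP motif TGATGNAA on both strands. The window covers 150 bases before to 30 bases after the start on the minus strand (RefSeq, GRCm38.p6, chr3:50443584-50443763), and the capitals mark the match on the gene's own strand 66 bases before the start and the one on the opposite strand 47 bases before it.
Slc7a11: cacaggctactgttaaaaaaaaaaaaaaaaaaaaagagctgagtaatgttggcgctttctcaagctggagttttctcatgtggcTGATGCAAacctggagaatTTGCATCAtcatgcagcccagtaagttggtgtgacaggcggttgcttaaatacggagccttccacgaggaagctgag
The amino acid lists held 14 genes that fell with the block, of which 9 had a window, and 6 of these 9 (66.7%) held TGATGNAA on either strand between 250 bases before and 50 bases after the start: Slc7a11, Slc1a4, Trib3, Herpud1, Nupr1 and Vldlr. The share was 3.51% over the tested genes with a window, 3.97% over all windows and 31.0% over the 29 members of the amino acid and unfolded protein response list with a window. The motif was held by 3 of 11 transporter genes and 4 of 10 synthetase genes with a window. Only the response list was named for ATF4 and CHOP, and it also holds unfolded protein response genes such as Hspa5. The transporter and synthetase lists are gene families. ATF4 and CHOP are known to switch on genes of these kinds, so the shares are a description. None of the 15 genes that rose without the block and had a window held the motif, and 1 of 20 that fell did. That gene was Phf11b, with a match 169 bases before the start, outside the stretch printed above. Aldh1l2 had no window.

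Other decreases fell outside these groups. Amigo2, a leucine-rich repeat adhesion protein, was at 7.43 and 8.16 in CD45RBhigh and 4.97 and 5.72 in CD45RBlow cells, with gaps of -2.46 and -2.44 (5.47-fold lower, limma adjusted p = 0.0352). Dapl1, a death-associated protein-like gene of naive T cells, was at 12.04 and 11.99 against 10.36 and 10.46 and fell 3.04-fold (limma adjusted p = 0.0409). It was the member of 22 naive and quiescence genes that fell without the block, and Ccr7 and Actn1, an actin cross-linker, joined it with the block (-0.90 each, limma adjusted p = 0.0402 and 0.0243). The median of that list was -0.01, equal to that of all genes. Lef1, a naive T cell factor, was at 11.2 on both CD45RBhigh arrays and differed by -0.13 ± 0.14 SE.

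Cd226, the costimulatory receptor DNAM-1, was at 10.44 and 10.19 in CD45RBhigh and 8.83 and 9.06 in CD45RBlow cells and fell 2.59-fold (limma adjusted p = 0.0194). Trat1, an adaptor of the T cell receptor complex, was at 11.93 and 11.40 against 9.13 and 9.58 and fell 4.97-fold with the block (limma adjusted p = 0.0262). The class I-like genes H2-Q5 and H2-M3 fell 2.56-fold and 1.77-fold (limma adjusted p = 0.0194 and 0.0393), alone among 17 genes of class I antigen presentation, while B2m, their shared light chain, differed by -0.02 ± 0.14 SE. Serpinb6b, an inhibitor of serine proteases, fell 2.25-fold, from 11.13 and 11.25 to 9.93 and 10.11 (limma adjusted p = 0.0229). Of 12 cytotoxic granule genes it was the one that fell without the block, with Fasl, the Fas ligand gene, added by the block (-1.14, limma adjusted p = 0.0474).

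The remaining named decreases concerned lipids and less studied genes. Atp8b4, a phospholipid flippase subunit, was at 6.74 and 6.60 in CD45RBhigh and 4.71 and 4.70 in CD45RBlow cells (3.90-fold lower, limma adjusted p = 0.0409). Acsl6, a long-chain acyl-CoA synthetase, was at 8.45 and 8.60 against 6.75 and 6.96 (3.18-fold lower, limma adjusted p = 0.0194). A second cluster of Acsl6, near the floor of the array, differed by 0.03, and the mean of both clusters by -0.82. Niban1, a stress-response gene, Glrp1, a glutamine-repeat protein gene, and App, the amyloid precursor protein gene, fell by 1.40, 1.36 and 1.16 on the log2 scale (limma adjusted p = 0.0409, 0.0194 and 0.0352). The gene model 9930111J21Rik2, singled out after its values were seen, had the smallest adjusted p of all genes: 8.75 and 8.90 against 6.28 and 6.18 (6.05-fold lower, limma adjusted p = 0.000377), and it was the single gene that passed in every alternative, leaving out any array included. Of the other genes that fell, Lsp1, a leukocyte actin-binding protein gene, was at 10.88 and 10.52 against 9.60 and 9.52 (limma adjusted p = 0.0352). Sft2d2, Acss2, Gramd3, Stambpl1, Gpr34, Tnni1 and Akna differed by -1.10 (Sft2d2) to -0.77 (Akna), and the remaining 1 was a gene model (-2.00). The genes that fell only with the block included Cox6a2, a cytochrome oxidase subunit (-1.98), and Rab34, a small GTPase (-1.50, limma adjusted p = 0.024 and 0.0149).

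**Figure D4:**
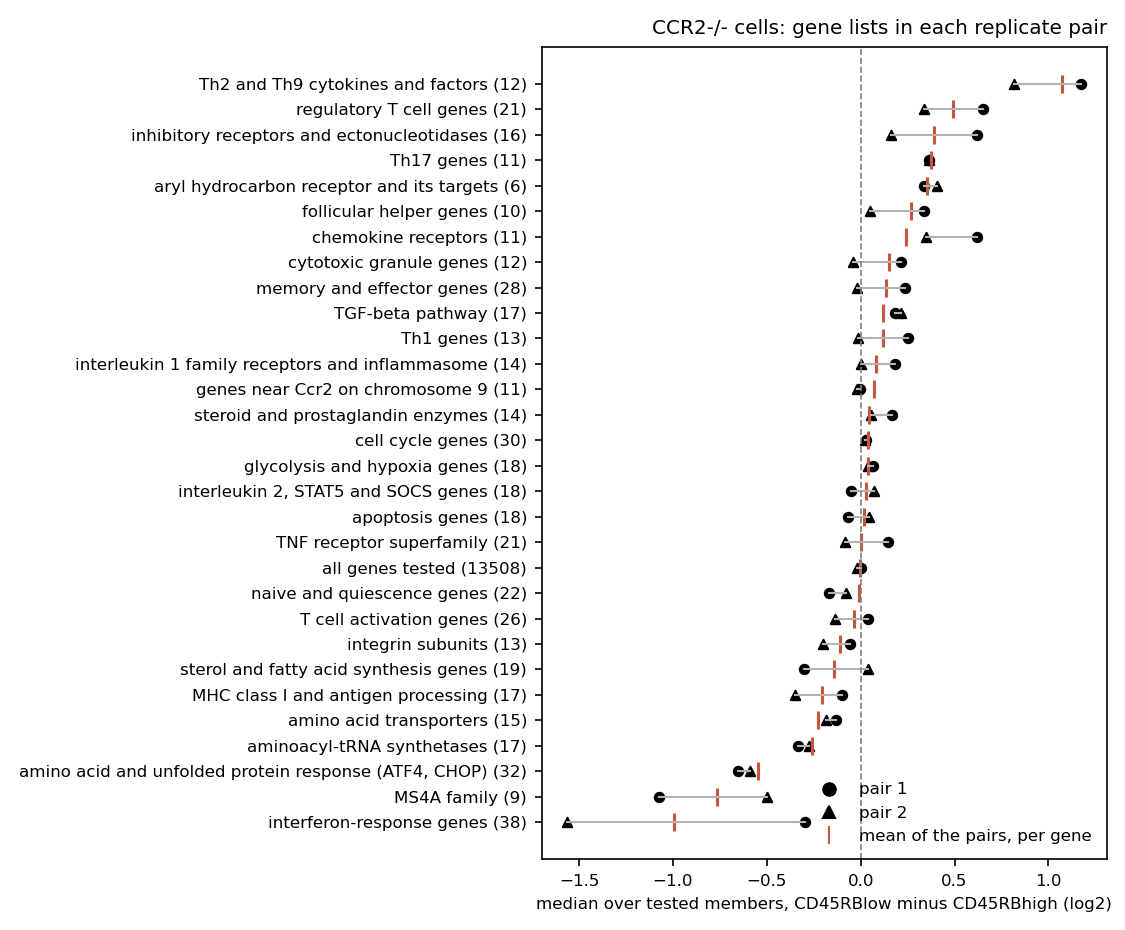
Median difference CD45RBlow minus CD45RBhigh (x axis, log2) over the tested members of each gene list in CCR2-/- cells, with the number of members in brackets. Circles give pair 1, triangles pair 2 and red bars the median of the per-gene means of both pairs. The Th2 and Th9 list is the farthest to the right (1.18 and 0.82) and the interferon-response list the farthest to the left in pair 2 (-1.56).

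Many programmes of activated T cells showed few or no differences. The Th1 genes had a list median of 0.12 over 13 tested members and 0 that passed without the block. Tbx21, the Th1 lineage factor, was at 9.97 and 10.81 in CD45RBhigh and 10.75 and 10.60 in CD45RBlow cells, and Ifng at 7.78 and 8.15 against 9.23 and 8.16. The groups of Tbx21 overlapped, and the Ifng gap of 1.44 in pair 1 was 0.00 in pair 2 (difference 0.72, 95% confidence interval -0.44 to 1.88). With the block Cxcr3 rose while Fasl and Stat4, a transducer of IL-12 signals, fell. Il2 was at 11.14 and 12.55 against 12.50 and 12.15, with gaps of opposite sign in the pairs.

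Of 26 T cell activation genes 0 passed without the block, and Egr2, an early response factor that restrains T cells, rose with it (0.94, limma adjusted p = 0.0474). In the IL-2 and STAT5 list of 18 genes, Socs2, a feedback inhibitor, was higher by 1.12 and Il15ra, a receptor subunit for IL-15, lower by 0.99, and each passed with the block only (limma adjusted p = 0.0171 and 0.0133). None of 30 cell cycle genes passed in either fit, their median was 0.04, and their mean level lay between 10.63 and 10.71 on the 4 CCR2-/- arrays. None of 19 sterol and fatty acid synthesis genes passed in either fit (median -0.14). Egln3, a hydroxylase that senses oxygen, was the one of 18 glycolysis and hypoxia genes that rose with the block (1.14, limma adjusted p = 0.0307). None of 11 tested genes near Ccr2 on chromosome 9 passed in either fit, and their median was 0.07.

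Wild-type cells were compared in the same way, with the difference taken on the other 4 arrays. The differences of the genotypes share no array, but both tests used the spread from the same fit of all arrays. Genes that passed in both genotypes are therefore no independent replication. Of 13508 genes, 12 passed in wild type (0.0888%) and 104 with the block (0.77%), and 10 genes passed in both genotypes. All 45 genes of the CCR2-/- comparison had the same sign in wild type, and the same sign in both wild-type pairs, against 69.8% and 49.3% of all genes tested. The wild-type arrays entered the spread by which the 45 were selected, which favours genes whose wild-type pairs agree. The agreement in sign is therefore a description and no test. The CCR2-/- gap was the larger for 37 of the 45 genes, with a median absolute difference of 1.62 against 1.31 in wild type. These genes were selected on the CCR2-/- gap, which favours a larger value there, so this count is no test.

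The test of a different gap between the genotypes, the interaction of fraction and genotype, called 0 genes (0%) in limma, with or without the block. At an unadjusted p under 0.05 it gave 160 genes (1.18%), and 288 with the block, where 5% of the genes tested would be 675.4. The smallest unadjusted p belonged to Casp1, with a gap of 1.62 in CCR2-/- and 0.72 in wild type (interaction 0.90, 95% confidence interval 0.48 to 1.32, limma unadjusted p = 0.00131, adjusted p = 0.9998). Wild-type Casp1 was at 7.87 and 7.80 in CD45RBhigh and 8.52 and 8.59 in CD45RBlow cells, so the genotypes were farther apart in CD45RBhigh than in CD45RBlow cells. Timp1, an inhibitor of matrix metalloproteinases, went the other way, with 0.70 in CCR2-/- and 1.99 in wild type (interaction -1.29, limma unadjusted p = 0.00143). Il4 had a gap of 2.42 in CCR2-/- and 1.35 in wild type (interaction 1.06, 95% confidence interval 0.28 to 1.85, limma unadjusted p = 0.0144), and Tnfrsf8 one of 2.88 against 1.57 (1.31, interval 0.20 to 2.43). None of these differences passed the adjustment. For Maf (-0.12, interval -0.84 to 0.61), Itgb8 (0.04, interval -1.24 to 1.32) and Phf11b (-0.34, interval -0.76 to 0.08) the gaps were not told apart between genotypes, and the width of the intervals shows how large a difference 2 arrays a group could miss.

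**Figure D5:**
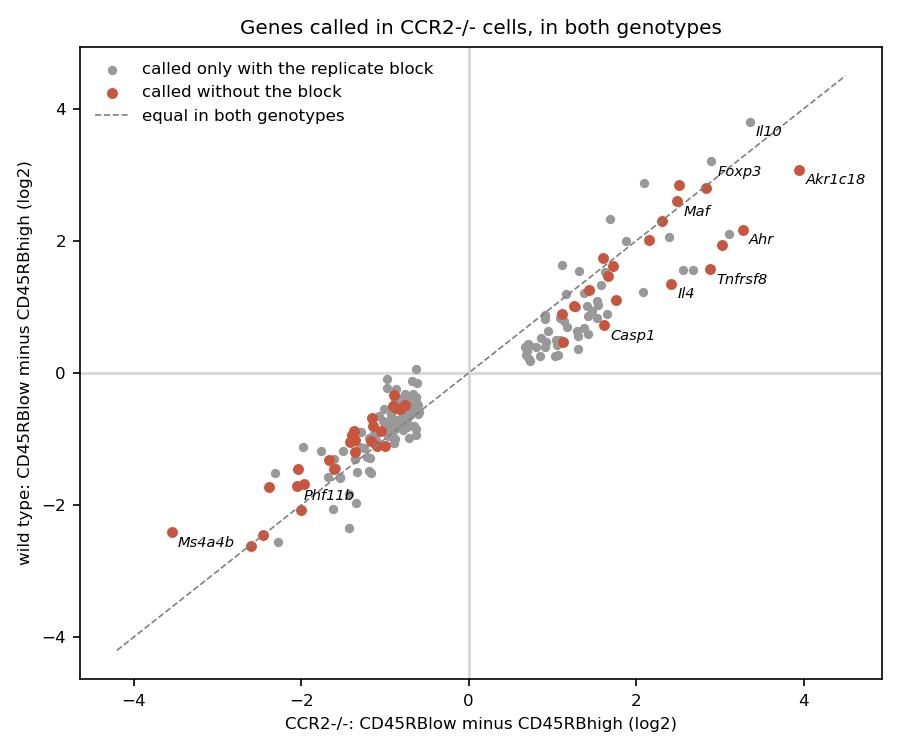
Difference CD45RBlow minus CD45RBhigh (log2) in CCR2-/- (x axis) and in wild type (y axis) for the 196 genes that passed in CCR2-/- cells. Red points passed without the replicate block, grey points only with it, and the dashed line marks equal differences. All 45 red points have the same sign in both genotypes, and 37 of them lie nearer to zero in wild type.

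Among the 45 genes that passed, 33 had the larger absolute gap in pair 1, 17 of the 19 that rose and 16 of the 26 that fell, against 6860 of all 13508 genes tested. Their median absolute gap was 1.78 in pair 1 and 1.42 in pair 2, while over all genes tested it was 0.17 in both. The 45 genes were selected on these arrays, so the counts are a description. Akr1c18 (4.39 and 3.50), Ahr (3.73 and 2.82) and Ms4a4b (-4.39 and -2.71) had the wider gap in pair 1, Ifi209 (-1.78 and -2.28) and Niban1 (-1.19 and -1.60) in pair 2, and Gpm6b, Maf and Amigo2 had nearly equal gaps. The replicate number, the sex-linked genes and the B cell markers on CD45RBhigh replicate 1 moved together with the pairs, and their part in these sizes was not tested.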

How the data were processed

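Per the submitters' processing notes, the authors used Partek and RMA, with no version or option given, and the deposited table holds log2 values for 41034 transcript clusters. Per the labels' protocols, 200 ng of total RNA was labelled with biotin in a whole-transcript kit. RMA normalizes arrays to each other, so a shift shared by most genes may not be seen, although array medians still ran from 4.92 to 5.05. The 23521 clusters with 1 gene symbol were kept, and the brightest stood for each of 22180 genes. Testing was limited to the 13508 genes that reached the 40th percentile of an array on 2 or more arrays. Group means were fitted over 8 arrays with limma 3.58.1 in R 4.3.3 (4 residual and 3.36 prior degrees of freedom, default empirical Bayes). Tests were two-sided, with Benjamini-Hochberg adjustment over all tested genes and a threshold of 0.05, and an adjusted p is limma's throughout. The code was tested on simulated arrays. Depth does not apply to arrays, and 2 arrays a group limit the precision, with a median SE of 0.15 for a difference and 0.21 for the interaction.

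Titles with a 2 were replicate 2 and those without a number replicate 1. Deviations of same-numbered arrays correlated in all 6 pairs of groups (over the limit of 0.1), so the numbers were treated as pairing the samples, although no label says so. Members, gene lists and alternatives were chosen with earlier results of these data known. Genes were named by size of change among those that passed (15 each way) or passed only with the block (10 each way), by list (up to 4, or 2), by the smallest interaction p (5) and from a set around CCR2, CD4 and the helper factors. Further list members with values, such as Il13, Il9, Pparg, Cyp11a1, Ddit3, Slc1a4, Ifit1, Irf7, Fcer2a and Ccr7, and the other genes that fell, were chosen after their values were seen, and so were the genes named for their promoter motif. Gene models with no usual symbol stayed unnamed, with 1 exception. Alternatives were the replicate block, other filters, the CCR2-/- arrays alone, other variance models and scalings, the mean of a gene's clusters, and leaving out each array.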

Additional observations from a re-analysis of the deposited data

Results flagged for a closer look

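Differences that went opposite ways in the genotypes, on every array of each pair, were found in 4 of the genes named. Mir1932, Snora44 and Zfp382 were named for their small interaction p, a choice that favours such differences. Over all genes tested, the mean difference had the same sign in both genotypes for 69.8%. For Itga2b, a platelet integrin subunit, the CCR2-/- gap minus the wild-type gap was -0.26 (limma unadjusted p = 0.181), at levels from 4.43 to 4.77 on all arrays. For the microRNA gene Mir1932 it was -0.72 (unadjusted p = 0.00477), from -0.40 in CCR2-/- and 0.32 in wild type. For the small nucleolar RNA gene Snora44 it was 1.33 (unadjusted p = 0.00419), with CD45RBlow higher by 0.82 in CCR2-/- and lower by 0.51 in wild type. For the zinc finger gene Zfp382 it was 0.80 (unadjusted p = 0.00727), from 0.24 and -0.56. None passed limma's interaction test after adjustment over 13508 genes.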

How the results depend on the processing

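The differences of the 32 named genes that passed kept their sign under all alternatives, whereas the counts moved. The kept sign was largely fixed in advance and is no test. The CCR2-/- groups of these genes do not overlap, so leaving out an array cannot turn a sign. Fits that change only the spread or the filter keep the difference itself. With the replicate block, 196 genes passed against 45 (71 higher, 125 lower, 57 members of the lists against 20). With only the CCR2-/- arrays 9 passed (5 higher, 4 lower, 5 list members and 5 of the 30 genes with the largest changes), and with these arrays and the block 35 passed, 16 of them lower. Array weights left 7 (3 higher, 4 lower, 4 list members, 6 of the 30). Trend and robust variances gave 69 (31 higher), centring on the median 83 (42 higher, 41 lower), quantile normalization 78 (37 higher, 41 lower) and a filter at the 60th percentile 64 (29 higher). With no filter 37 passed, and with the mean of a gene's clusters 47.

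Leaving out 1 array in turn gave 1 to 84 genes (0 to 42 higher, 1 to 42 lower), 0 to 25 list members and 0 to 21 of the 30 genes, the fewest without CCR2-/- CD45RBlow replicate 1 and the most genes without CCR2-/- CD45RBhigh replicate 2. A group left with 1 array is assumed to vary like the others. The interaction called 0 genes wherever it could be fitted. Only 2 of the 45 genes passed under every alternative that keeps all arrays. Scaling moved the median of all genes by less than 0.1. The cause of these changes was not tested.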
